A study of Mus musculus with 2 samples.

Results

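The genes of the major histocompatibility complex (MHC) and of its loading machinery were described in total RNA of mouse adrenal gland. The 44 genes were those with a symbol that begins with H2- and at least 1 protein_coding transcript in the annotation (37 genes), plus 7 genes added by name: B2m, Cd74, Ciita, Nlrc5, Tap1, Tap2 and Tapbp. They were 44 of 55536 annotated genes, and 40 of them lie on chromosome 17. The 8 other H2 genes, which have no protein_coding transcript, were not members. The glands came from B6CASTF1/J females, F1 hybrids of C57BL/6J and CAST/EiJ, 10 days old. All samples form 1 group with no treatment or mutation, and it holds 2 libraries, numbered as biological replicates 1 and 2. Their tissue labels name different females, but both library descriptions repeat the same female, so it cannot be told from the labels whether n = 2 stands for separate animals, and each SD measures only the spread between these libraries, which may be technical. Expected counts summed to 35636846 in replicate 1 and to 33378436 in replicate 2.

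MHC class I molecules display peptides from inside the cell to CD8+ T cells on nearly all cell types, and each is a heavy chain bound to beta-2 microglobulin (B2m). Their peptides are pumped into the endoplasmic reticulum by the transporter Tap1/Tap2 and loaded with the help of tapasin (Tapbp). MHC class II molecules, alpha and beta chain pairs found mainly on B cells, dendritic cells and macrophages, display peptides from endosomes to CD4+ T cells. The invariant chain (Cd74) escorts them, H2-DM exchanges its remnant for a peptide, and H2-O restrains H2-DM. Nlrc5 and Ciita are the transactivators of class I and class II genes. They act through proteins that sit on shared X and Y boxes of the promoters, and class I promoters also hold an interferon-stimulated response element (ISRE).

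The promoters of some of the genes are shown, with the letters of these elements marked where they occur. Of the 44 genes, 34 had 37 promoters in RefSeq (GRCm38.p6), each running from 250 bases before the start site to 50 after it. The search covered both strands for the Y box letters ATTGG, for an ISRE written as GAAA, any 2 bases, GAAA, and for an X box written as CC, any 5 bases, AC, any 1 base, GATG. The capitals mark these letters, matches on the opposite strand included, and matches of different motifs overlapped in 0 cases. B2m, H2-T23 and H2-T22 were the genes that held both Y box and ISRE letters. H2-D1, H2-Aa and H2-Q10 were added after their values were seen, as a classical class I gene, a class II gene and the gene that differed most between the libraries. The printed stretches are the 210 bases before the start site, on the strand of the gene.
B2m (chr2:122147477-122147686, plus strand): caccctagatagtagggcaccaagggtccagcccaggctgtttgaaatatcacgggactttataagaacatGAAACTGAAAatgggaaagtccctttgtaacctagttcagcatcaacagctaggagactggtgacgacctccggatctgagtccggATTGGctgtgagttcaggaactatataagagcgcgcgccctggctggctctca
H2-T23 (chr17:36032702-36032911, minus strand): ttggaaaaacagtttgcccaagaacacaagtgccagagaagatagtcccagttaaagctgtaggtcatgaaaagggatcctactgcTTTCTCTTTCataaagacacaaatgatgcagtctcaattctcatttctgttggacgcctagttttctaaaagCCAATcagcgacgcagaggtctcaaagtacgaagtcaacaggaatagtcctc
H2-T22 (chr17:36042743-36042952, minus strand): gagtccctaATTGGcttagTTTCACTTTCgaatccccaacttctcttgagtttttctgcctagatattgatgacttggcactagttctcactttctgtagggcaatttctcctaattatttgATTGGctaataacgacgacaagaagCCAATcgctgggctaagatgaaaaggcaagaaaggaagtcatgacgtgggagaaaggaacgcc
H2-D1 (chr17:35262884-35263093, plus strand): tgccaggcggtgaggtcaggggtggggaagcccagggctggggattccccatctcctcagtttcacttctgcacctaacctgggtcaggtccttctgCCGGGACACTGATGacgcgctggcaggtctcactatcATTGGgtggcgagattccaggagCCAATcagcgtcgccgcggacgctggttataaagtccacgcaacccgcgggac
H2-Aa (chr17:34287824-34288033, minus strand): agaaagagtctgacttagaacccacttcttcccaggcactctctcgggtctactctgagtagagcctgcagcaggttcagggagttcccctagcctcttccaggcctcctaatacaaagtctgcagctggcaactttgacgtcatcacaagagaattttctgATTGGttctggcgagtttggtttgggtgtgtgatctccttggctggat
H2-Q10 (chr17:35469879-35470088, plus strand): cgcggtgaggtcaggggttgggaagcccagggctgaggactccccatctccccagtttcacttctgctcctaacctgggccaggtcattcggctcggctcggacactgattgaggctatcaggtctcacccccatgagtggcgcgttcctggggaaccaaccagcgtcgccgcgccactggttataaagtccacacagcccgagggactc

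Y box letters were in 33 of the 37 promoters (89.2%), beside 37.4% of all 32851 promoters of the same length. The 3 genes with no match were H2-Q10, H2-T3 and H2-M5. ISRE letters were in 3 promoters (8.11%), beside 3.44% of all promoters. X box letters were in 7 promoters (18.9%), beside 0.749% of all promoters. The 7 were those of H2-D1, H2-Q4, H2-Q6, H2-Q7, H2-M3, H2-DMb1 and H2-DMb2. In each of them a Y box began 36 or 37 bases after the X box began, so class I and H2-DM promoters had nearly the same spacing. A match is a description of letters, and no match says only that those letters are not in the window.

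Of the 44 genes, 23 were detected, that is, they had at least 1 TPM, a transcript abundance corrected for length and library total, in both libraries. This share of 52.3% stood beside 58.3% of the 21938 nuclear protein-coding genes. Among the detected genes the median stood at 9.22 TPM for replicate 1 and 6.23 TPM for replicate 2, beside 10.24 and 9.81 TPM for the detected nuclear protein-coding genes. The antigen-presenting genes with the highest levels were B2m, H2-K1, Tapbp, H2-D1 and Cd74. At the other end, 8 genes had 0 counts in both libraries, all of them M region class I genes: H2-M1, H2-M11 and H2-M10.1 to H2-M10.6, the last a group known from the vomeronasal organ. Counts of 0 allow up to 3 counts, which is 0.0842 CPM in replicate 1 and 0.0899 CPM in replicate 2. The remaining 13 genes had mean levels between 0.03 and 0.97 TPM.

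**Figure D1:**
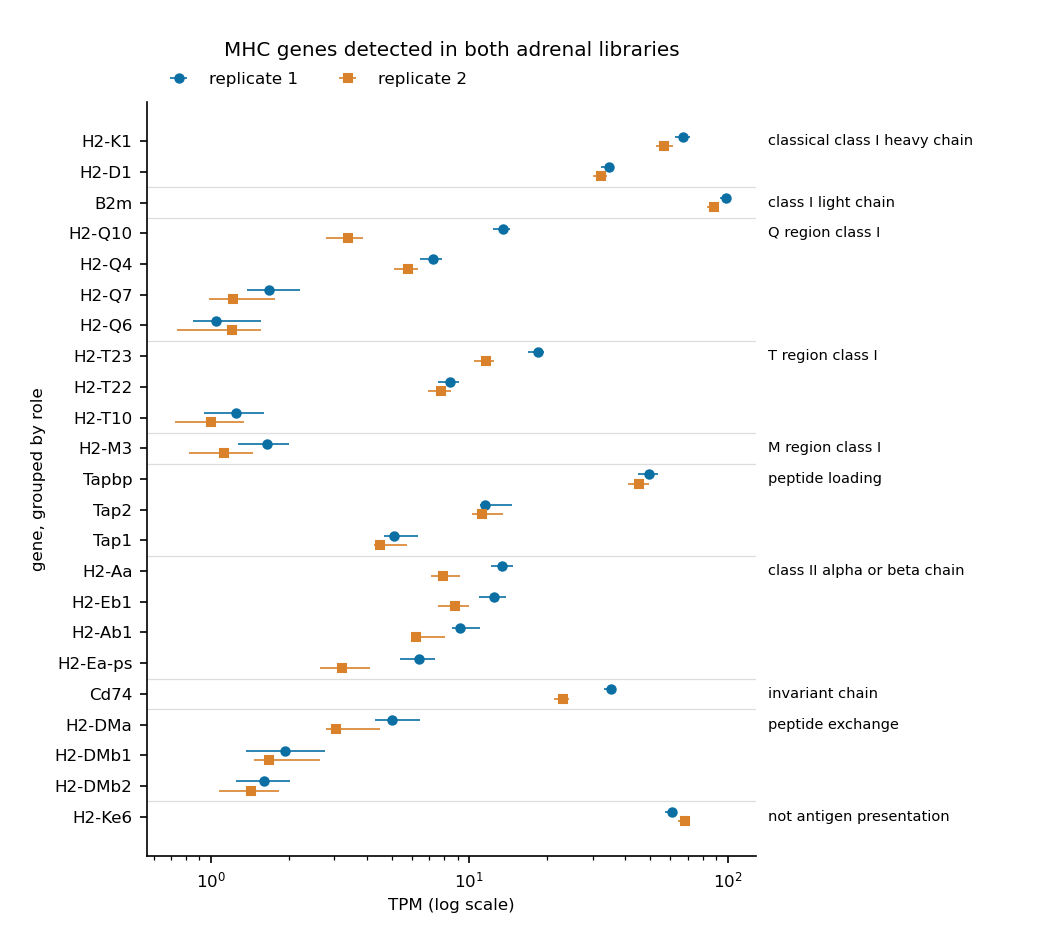
TPM on a log scale of the 23 MHC genes with at least 1 TPM in both libraries, grouped by role, with circles for replicate 1, squares for replicate 2 and bars for the deposited credibility interval of each value. B2m is highest, at 98.9 TPM in replicate 1 and 88.5 TPM in replicate 2, and H2-Q10 shows the widest gap between the libraries.

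B2m (chr2:122147686-122153083), the light chain shared by class I molecules, had 98.9 TPM in replicate 1 and 88.5 TPM in replicate 2, a mean of 93.7 ± 7.35 TPM (SD, n = 2). It ranked 573 among the 21938 nuclear protein-coding genes by mean TPM. The classical heavy chain H2-K1 (chr17:33996017-34000347) had 67.4 TPM in replicate 1 and 56.6 TPM in replicate 2, and the other classical heavy chain, H2-D1 (chr17:35262730-35267499), had 34.7 and 32.4 TPM. Within each library H2-K1 stood above H2-D1 over all transcripts, with a log2 ratio of 0.88 ± 0.11 (SD, n = 2). Over protein_coding transcripts alone, a measure added after the values were seen, the order turned: H2-K1 had 29.8 TPM in replicate 1 and 24.98 TPM in replicate 2, and H2-D1 had 32.7 and 31.2 TPM. That log2 ratio was -0.23, but it was 0.31 in a second quantification of the same libraries that the authors deposited. The 26 class I heavy chain genes together had 157.6 TPM in replicate 1 and 124.8 TPM in replicate 2. B2m was below that sum, at a log2 ratio of -0.58 ± 0.12 (SD, n = 2), and at -0.083 over protein_coding transcripts. All TPM values are corrected for length. Whether the counting used CAST/EiJ variants is not given, and its effect on the levels of these F1 hybrids was not tested. Levels and ratios of different genes, here and below, carry that limit.

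The nonclassical class I genes of the Q region held the widest range between the libraries. H2-Q10 (chr17:35470089-35474563), a secreted class I heavy chain made by liver, had 13.6 TPM in replicate 1 and 3.38 TPM in replicate 2. H2-Q4 had 7.26 TPM in replicate 1 and 5.80 TPM in replicate 2. The Qa-2 genes H2-Q7, with 1.68 and 1.22 TPM, and H2-Q6, with 1.04 and 1.21 TPM, were near the detection limit. H2-Q1, with 0.49 and 0.61 TPM, and H2-Q2, with 0.23 and 0.49 TPM, were below it. The deposited intervals of H2-Q6 and H2-Q7 overlapped in both libraries, so they could not be ordered.

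In the T region H2-T23 (chr17:36029773-36032855), which encodes Qa-1, a presenter of class I leader peptides to NK cell receptors, led with 18.4 TPM in replicate 1 and 11.6 TPM in replicate 2. H2-T22, known as a ligand of gamma delta T cells, had 8.39 TPM in replicate 1 and 7.74 TPM in replicate 2. Its close relative H2-T10 had 1.25 and 1.00 TPM. H2-T24 had 0.96 TPM in replicate 1 and 0.98 TPM in replicate 2, just below the detection limit. H2-T3, the thymus leukemia antigen gene, had 0 TPM in replicate 1 and 0.06 TPM in replicate 2, and H2-Bl had 0.38 and 0.19 TPM. Of the 12 M region genes only H2-M3, which presents N-formylated peptides, was detected, with 1.64 TPM in replicate 1 and 1.12 TPM in replicate 2.

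For peptide loading, tapasin (Tapbp) had 49.5 TPM in replicate 1 and 45.4 TPM in replicate 2. The transporter subunit Tap2 had 11.5 and 11.2 TPM, and its partner Tap1 had 5.12 and 4.52 TPM. Over all transcripts Tap2 was higher than Tap1 within each library, at a log2 ratio of 1.24 ± 0.10 (SD, n = 2). Over protein_coding transcripts it was lower, at -1.06, and in the second quantification the coding ratio was 0.14. The transactivator Nlrc5 had 0.94 TPM in replicate 1 and 0.72 TPM in replicate 2.

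Class II chains together were lower than class I heavy chains together. The 5 class II alpha and beta chain genes summed to 41.5 TPM in replicate 1 and 26.3 TPM in replicate 2, and the class I heavy chains exceeded them by a log2 ratio of 2.09 ± 0.23 (SD, n = 2). The alpha chain H2-Aa (chr17:34282744-34287823) had 13.4 TPM in replicate 1 and 7.94 TPM in replicate 2, and its partner, the beta chain H2-Ab1 (chr17:34257689-34269419), had 9.22 and 6.23 TPM. The beta chain H2-Eb1 (chr17:34305867-34316674) had 12.4 TPM in replicate 1 and 8.81 TPM in replicate 2. H2-Ea-ps, the alpha chain that pairs with H2-Eb1, had 6.36 and 3.22 TPM, while H2-Eb2 had 0.13 and 0.05 TPM. In each of the 4 detected chains replicate 1 was the higher library.

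H2-Ea-ps (chr17:34341959-34344645) is annotated with both a polymorphic pseudogene transcript and a protein_coding transcript, because C57BL/6 mice do not transcribe the gene while other strains do. In these F1 hybrids it was detected, and its protein_coding transcript had 5.63 TPM in replicate 1 and 2.92 TPM in replicate 2. Relative to its partner H2-Eb1 it stood at a log2 ratio of -1.21 ± 0.34 (SD, n = 2) over all transcripts, but at 1.77 over protein_coding transcripts and 1.13 over those of the second quantification. H2-Aa exceeded it by 1.19 ± 0.16 (SD, n = 2) on the log2 scale. From which parental chromosome its reads came was not tested.

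The invariant chain Cd74 had 35.5 TPM in replicate 1 and 23.02 TPM in replicate 2. Against the sum of the class II chains it stood at a log2 ratio of -0.21 ± 0.03 (SD, n = 2) over all transcripts, and at 0.34 over protein_coding transcripts. Of the peptide exchange genes, the alpha chain H2-DMa had 5.02 TPM in replicate 1 and 3.04 TPM in replicate 2. The beta chains were lower, H2-DMb1 with 1.93 and 1.68 TPM and H2-DMb2 with 1.60 and 1.43 TPM. The balance of H2-DMa against the summed beta chains changed sign between the libraries, with a log2 ratio of 0.51 in replicate 1 and -0.03 in replicate 2, and over protein_coding transcripts the mean was -0.10. H2-Ob, the beta chain of H2-O, had 1.15 TPM in replicate 1 and 0.71 TPM in replicate 2 and was the only gene detected in exactly 1 library. H2-DM chains exceeded H2-O chains by a log2 ratio of 2.57 ± 0.25 (SD, n = 2). The transactivator Ciita had 0.91 TPM in replicate 1 and 0.61 TPM in replicate 2, and its ratio to Nlrc5 was near 0 on the log2 scale (-0.14 ± 0.14, SD, n = 2). That sign turned to 0.80 in the second quantification and to 1.06 over protein_coding transcripts.

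H2-Ke6 had 60.8 TPM in replicate 1 and 68.4 TPM in replicate 2 and ranked just above H2-K1 by its mean, yet it does not present antigen. RefSeq gives Hsd17b8, the name of a hydroxysteroid dehydrogenase, as its synonym. Of the 100-base windows of its leading coding transcript, 63.1% also occur in transcripts of Gm20427, which overlaps it on the same strand with 3.59 TPM in replicate 1 and 2.22 TPM in replicate 2. It entered through its symbol, and it was kept out of the class I and class II counts.

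The libraries were compared with each other by an exact two-sided binomial test of rounded expected counts, with Benjamini-Hochberg adjustment over all 18883 genes tested. This test covers counting error only, it compares these libraries and no condition, and over 2 libraries an exact test of a group could not go below p = 0.5. Of the 44 genes, 30 had enough counts to be tested. Of these, 1 passed an adjusted p of 0.05 with at least a 2-fold difference, which is 3.33%, beside a background of 6.8% of all genes in either direction and 4.05% higher in replicate 1. The gene was H2-Q10. With no fold limit 14 of the 30 passed, beside a background of 26.6%. Of the 14, 13 were higher in replicate 1, and the exception was H2-Ke6 (log2 ratio of replicate 1 over replicate 2 of -0.20). Of all genes that passed, 44.5% were higher in replicate 1, which is 11.9% of all genes tested. The median log2 ratio of the tested genes was 0.22, against 0.00 for all genes tested, and 25 of the 30 lay above 0.

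**Figure D2:**
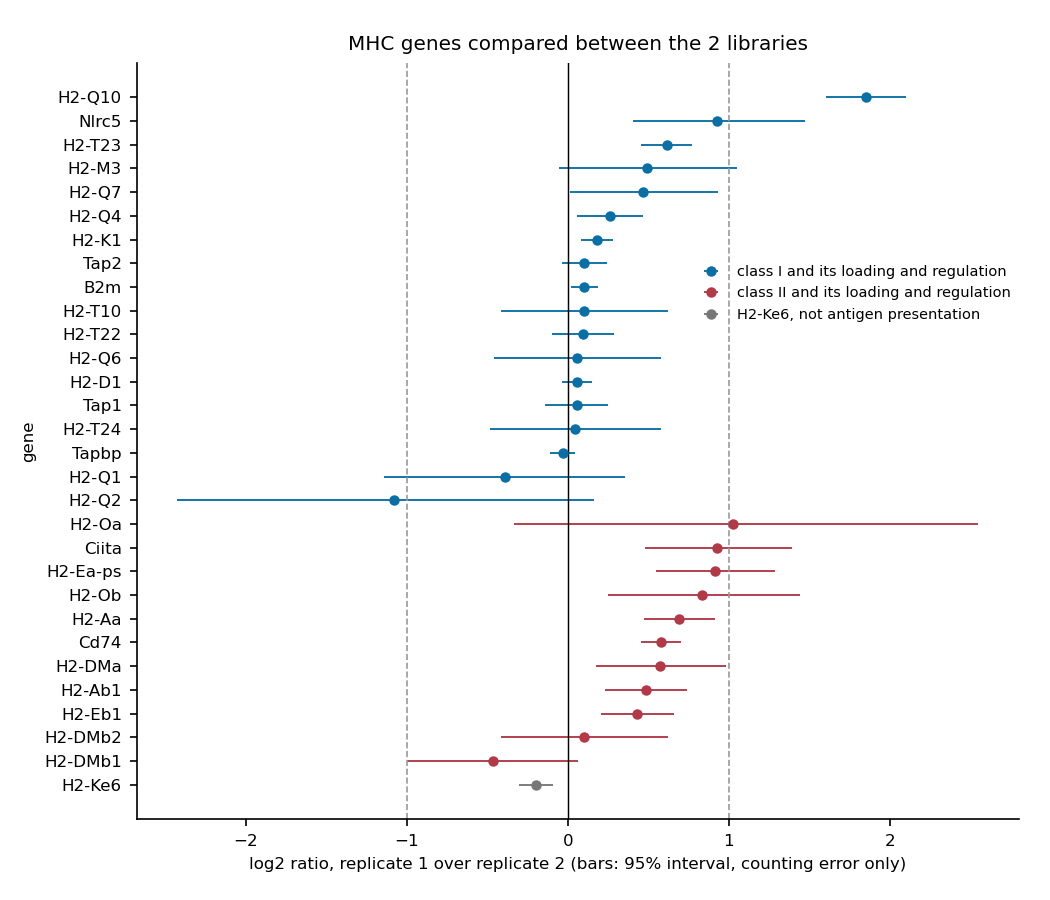
Log2 ratio of replicate 1 over replicate 2 for the 30 MHC genes tested, with 95% intervals for counting error, coloured by class; the dashed lines mark 2-fold differences. H2-Q10 lies at 1.85 with its whole interval beyond the dashed line, and 10 of the 11 class II genes lie above 0.

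H2-Q10 had 691 counts in replicate 1 and 171 counts in replicate 2. It was 3.60-fold higher in replicate 1 (95% interval 3.04 to 4.29, adjusted p = 6.44e-61 by the exact binomial test). Markers of hepatocytes were also higher in replicate 1, with 6 of 6 called. Together they had 5511 TPM in replicate 1 and 1064 TPM in replicate 2, and their median log2 ratio was 2.33. Albumin (Alb) alone had 2509 TPM in replicate 1 and 501.6 TPM in replicate 2. Per 1000 TPM of Alb, a measure chosen after the values were seen, H2-Q10 had 5.40 TPM in replicate 1 and 6.74 TPM in replicate 2. The part of hepatocyte RNA in the H2-Q10 difference was not tested. When the spread between the libraries was counted as noise, at a biological coefficient of variation of 0.282, edgeR's exact negative binomial test gave H2-Q10 an adjusted p of 0.084 and called 0 of the 30 genes.

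The 11 tested class II genes had a median log2 ratio of 0.58, and the 18 tested class I genes had a median of 0.10. None of the class II genes reached the 2-fold limit, while 8 of 11 (72.7%) had an adjusted p under 0.05, all of them higher in replicate 1. Of the class I genes 5 of 18 (27.8%) did so, again all higher in replicate 1. The background was 26.6% of all genes in either direction and 11.9% higher in replicate 1. For the chains the log2 ratio was 0.69 for H2-Aa, 0.48 for H2-Ab1, 0.43 for H2-Eb1 and 0.91 for H2-Ea-ps. Cd74 lay at 0.58, H2-DMa at 0.57 and H2-Ob at 0.83. Ciita, with 130 counts in replicate 1 and 61 counts in replicate 2, lay at 0.92. H2-DMb1, at -0.46, pointed the other way without passing the threshold, and its TPM was higher in replicate 1. Both H2-DM results depended on the quantification. By the same binomial test on the second quantification, H2-DMa lay at 0.36 and did not pass (adjusted p = 0.173). H2-DMb1 lay there at -0.69, higher in replicate 2, and passed with no fold limit (adjusted p = 0.022). Whether class I and class II differed in this comparison was not tested.

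Among class I genes, the 5 with an adjusted p under 0.05 were H2-Q10, Nlrc5, H2-T23, H2-Q4 and H2-K1. Nlrc5, with 96 counts in replicate 1 and 45 counts in replicate 2, had the same log2 ratio of counts as Ciita, 0.92. In TPM Nlrc5 differed less, with 0.94 in replicate 1 and 0.72 in replicate 2. Among the genes of both classes with an adjusted p under 0.05, the deposited TPM intervals of the libraries overlapped for Nlrc5, Ciita, H2-DMa and H2-Ob. H2-T23 lay at 0.61, H2-Q4 at 0.26 and H2-K1 at 0.18. H2-D1 (0.06), Tap1 (0.05), Tap2 (0.10), B2m (0.10) and H2-T22 (0.09) did not pass. For Tapbp the estimate was -0.03, and it changed sign to 0.04 when libraries were scaled by total count.

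Markers of leukocytes, like the class II genes, were mostly higher in replicate 1. Ptprc, carried by all white blood cells, had 7.38 TPM in replicate 1 and 3.90 TPM in replicate 2, a log2 ratio of 0.83. B cell markers summed to 30.5 TPM in replicate 1 and 16.8 TPM in replicate 2, with 7 of 8 above 0, and those called higher in replicate 1 included Ms4a1 and Fcer2a. Ighm, the most abundant of them, had 17.3 TPM in replicate 1 and 9.29 TPM in replicate 2. T and NK cell markers had a median log2 ratio of 0.76 with Cd3e and Cd3g called, of 7 tested, and their summed level was 11.7 and 6.04 TPM. Dendritic cell markers had a median of 0.74 with Itgax and Ccr7 called, of 8 tested, and summed to 11.4 TPM in replicate 1 and 8.72 TPM in replicate 2. Macrophage markers had a median of 0.23 with 0 of 9 called, and summed to 87.8 and 72.7 TPM. These calls use the 2-fold limit, which 4.05% of all genes passed as higher in replicate 1. With no fold limit, 7 of 8 B cell markers and 3 of 7 T and NK cell markers had an adjusted p under 0.05. So did 2 of 8 dendritic cell and 2 of 9 macrophage markers, beside 26.6% of all genes, and all of these markers were higher in replicate 1. Of all the markers of these 4 lists none was at 0 in both libraries, but many were low. At least 1 TPM in both libraries was reached by 3 of 8 B cell and 1 of 10 T and NK cell markers. The same held for 1 of 9 dendritic cell and 8 of 9 macrophage markers.

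The class II chains were set against each of these markers, with measures chosen after the values were seen. Per TPM of Ptprc they had 5.63 TPM in replicate 1 and 6.73 in replicate 2, per TPM of the B cell markers 1.36 and 1.56, and per TPM of the T and NK cell markers 3.56 and 4.35. Per TPM of the dendritic cell markers they had 3.65 TPM in replicate 1 and 3.01 in replicate 2. Per TPM of the macrophage markers they had 0.473 and 0.361. Zbtb46 made up most of the dendritic cell sum, with 7.78 TPM in replicate 1 and 6.81 TPM in replicate 2. Its log2 ratio was 0.08, below the median of 0.74 for that list, so the dendritic cell value mainly follows Zbtb46. The value without it was not computed. By these sums replicate 1 was the lower library against the first 3 and the higher against the other 2. The part of any of these cell types in the result was not tested. In bulk tissue, fewer cells of a type and less RNA per cell cannot be told apart. Endothelial markers (median log2 ratio -0.09) and adrenal cortex markers (-0.13) had 0 genes called among 6 each at the 2-fold limit. With no fold limit 3 of 6 endothelial and 6 of 6 cortex markers had an adjusted p under 0.05, all higher in replicate 2. The cortex markers of the labelled tissue summed to 3796 TPM in replicate 1 and 4098 TPM in replicate 2, with Star lowest in log2 ratio at -0.60. Kidney markers went the other way from the MHC genes, with 0.96 TPM in replicate 1 and 211.5 TPM in replicate 2 and 6 of 6 called higher in replicate 2.

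**Figure D3:**
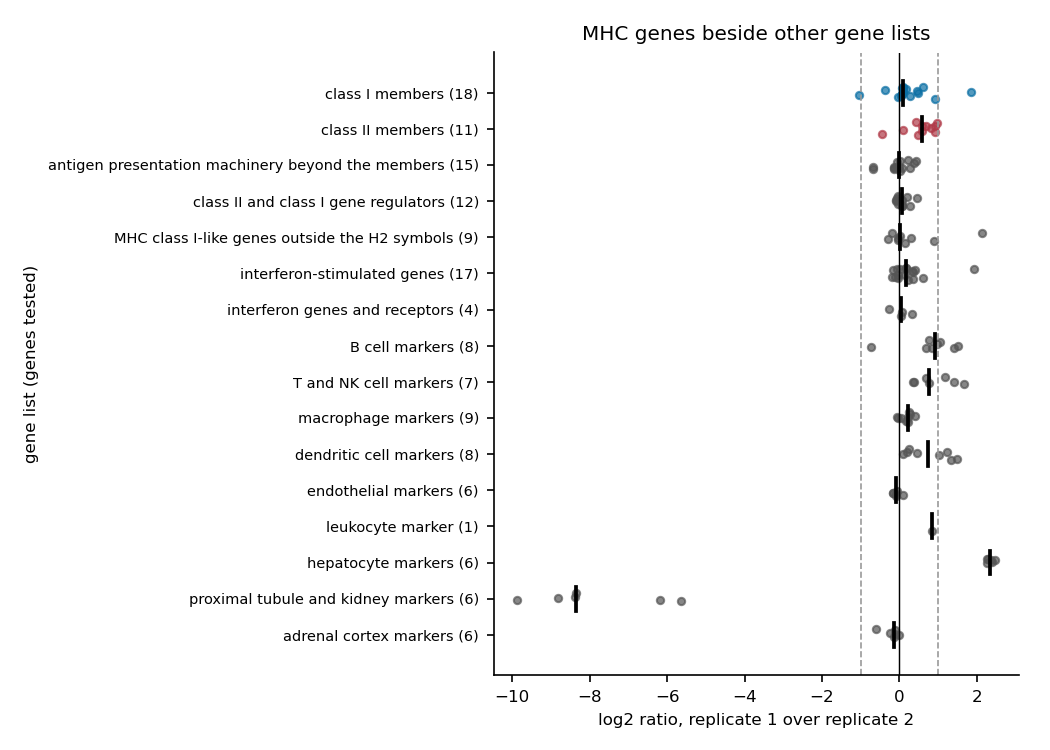
Log2 ratio of replicate 1 over replicate 2 for each tested gene of the class I and class II members and of 14 other lists, with black bars for the medians and dashed lines at 2-fold. Class II genes and B cell, T cell and dendritic cell markers lie mostly to the right of 0, hepatocyte markers lie near 2.33 and kidney markers near -8.37.

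All 15 genes of the antigen presentation machinery beyond the members were detected, and 0 were called between the libraries at the 2-fold limit (median log2 ratio -0.02, which total count scaling turned to 0.05). With no fold limit 7 of the 15 had an adjusted p under 0.05, 1 higher in replicate 1 and 6 higher in replicate 2. The largest differences, named after their values were seen, were in the endosomal proteases Ctsl (log2 ratio -0.68, with 83.7 TPM in replicate 1 and 124.4 TPM in replicate 2) and Lgmn (-0.68, with 29.4 and 45.6 TPM). The most abundant were cathepsin B (Ctsb), with 181.5 TPM in replicate 1 and 184.9 TPM in replicate 2, the chaperone calreticulin (Calr), with 133.4 and 141.3 TPM, and the proteasome activators Psme2, with 119.6 and 113.3 TPM, and Psme1, with 111.4 and 107.3 TPM. The 12 other regulators of MHC genes were all detected, with 0 called at the 2-fold limit, 1 at an adjusted p under 0.05 with no fold limit, and a median log2 ratio of 0.07. They include Nfyc, a subunit of the Y box factor, with 23.4 TPM in replicate 1 and 22.3 TPM in replicate 2, and Irf2, an interferon regulatory factor, with 18.5 and 18.9 TPM. Ifng and Ifnb1 had 0 counts in both libraries.

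Transcript types within the genes differed widely. In the median detected gene 91.6% of the TPM lay in protein_coding transcripts (mean over the libraries), and 12 of 23 genes had at least 90% there in both libraries. In 3 genes the share was below 50% in both. H2-Eb1 had 14.2% in replicate 1 and 9.07% in replicate 2. Its leading transcript was annotated for nonsense-mediated decay, with 56.2% of the gene in replicate 1 and 67.4% in replicate 2, followed by a retained intron transcript with 24.8 and 20.6%. The second quantification gave the coding transcripts of H2-Eb1 21.2% in replicate 1 and 16.6% in replicate 2, so the low share was seen in both.

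Tap2 had 15.6% of its TPM in coding transcripts in replicate 1 and 20.2% in replicate 2, and a retained intron transcript held 84.4 and 79.9%. In the second quantification the coding share was 36.6% in replicate 1 and 36.3% in replicate 2. For H2-K1 the coding share was 44.3% in replicate 1 and 44.1% in replicate 2, and a retained intron transcript of 457 nt held 48.7 and 50.5%. The quantifications disagreed here: the second put the coding share of H2-K1 at 79.8% in replicate 1 and 74.6% in replicate 2. H2-DMb1 differed between the libraries, with 44.8% coding in replicate 1 and all of its TPM in the coding transcript in replicate 2, at levels under 2 TPM.

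**Figure D4:**
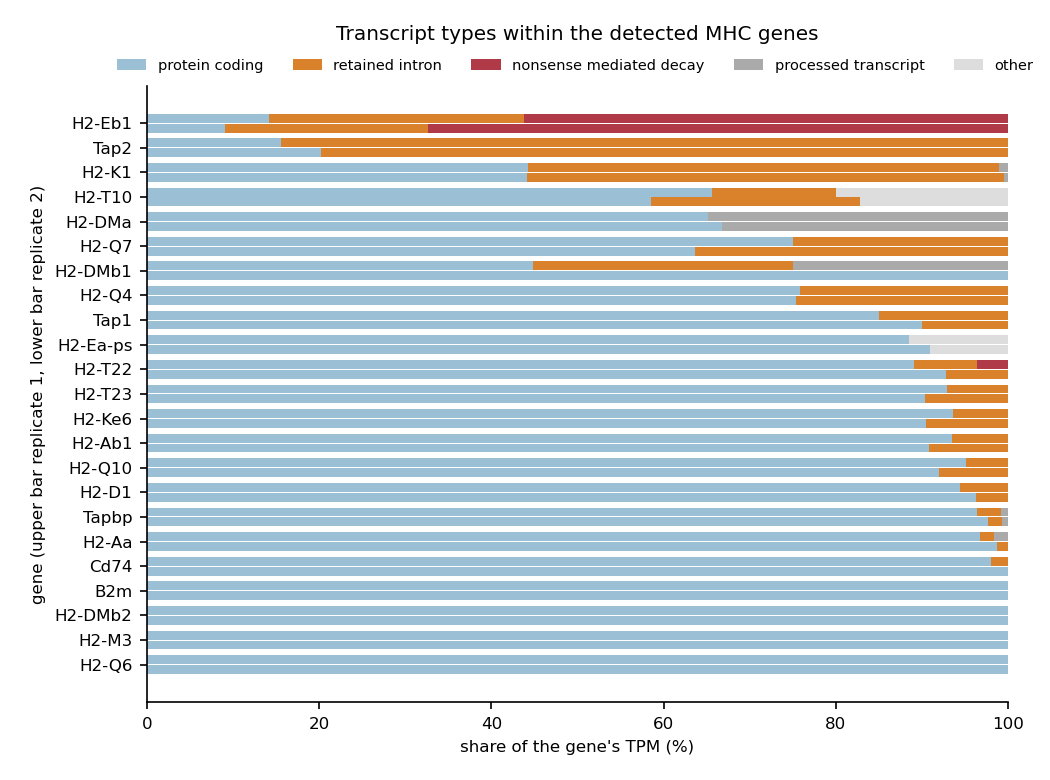
Share of each gene's TPM, in percent, by the annotated type of its transcripts for the 23 detected MHC genes, upper bars for replicate 1 and lower bars for replicate 2. H2-Eb1, Tap2 and H2-K1 are below 50% protein coding in both libraries, and B2m, H2-DMb2, H2-M3 and H2-Q6 are wholly protein coding.

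Near-identical sequence between class I genes limits how exactly reads can be divided. Of the leading coding transcripts of the 44 genes, 31 shared no 100-base window with a transcript of another gene, among them H2-K1, B2m and all class II alpha and beta chains. In 7 genes more than 10% of the windows were shared: H2-Ke6, H2-T22 (14.8%), H2-DMb1 (13.7%), H2-Q1 (13.6%), H2-DMb2 (13.5%), H2-T10 (11.8%) and H2-Q6 (10.8%). H2-DMb1 and H2-DMb2 shared theirs with each other, as H2-T10 did with H2-T22. For H2-Q10 the share was 2.84% and for H2-D1 4.64%. H2-DMa overlaps Brd2, which lies on the opposite strand with 59.9 TPM in replicate 1 and 58.0 TPM in replicate 2, so its low level is uncertain if the counting ignored the strand.

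The quantifications were set side by side after each was rescaled to the same total over nuclear protein-coding genes. Of 31 MHC genes with a mean of at least 1 on that scale in either table, 1 differed by more than 2-fold the same way in both libraries, beside a background of 2.51% of 15074 genes, and 24 agreed within 1.5-fold in both. That gene was H2-Q1, a nonclassical class I gene, lower in the second quantification by a log2 ratio of -1.25 in replicate 1 and -1.69 in replicate 2. Nlrc5 differed in 1 library, at -0.17 in replicate 1 and -1.60 in replicate 2. H2-Q10 stood at -0.16 in replicate 1 and 0.03 in replicate 2, so its level and its difference between the libraries were alike in both tables. The median of the MHC genes and that of all genes were both -0.11.

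**Figure D5:**
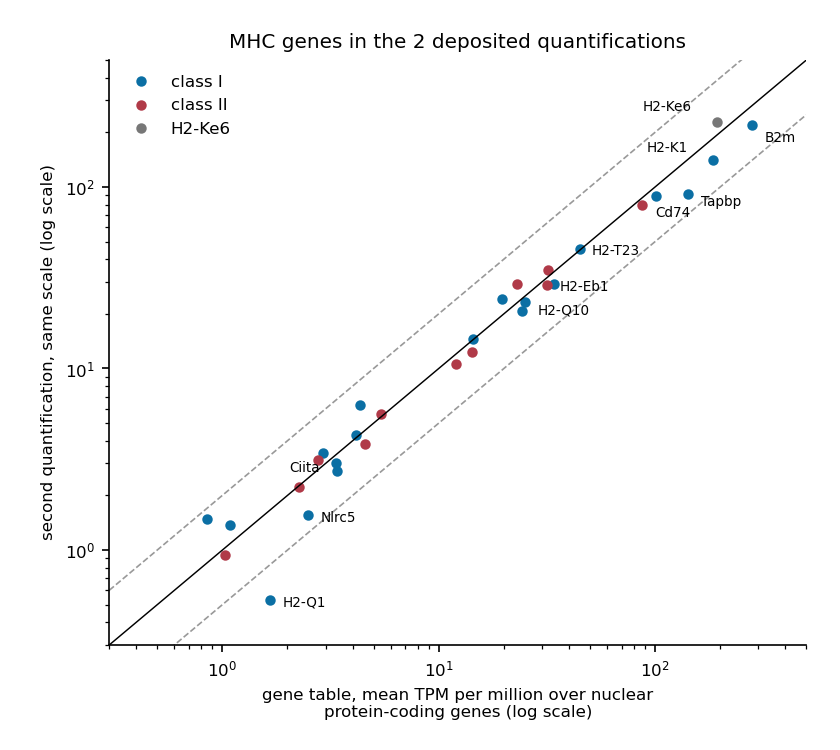
Mean level of 31 MHC genes in the gene table (horizontal) and in the second quantification (vertical), both as TPM rescaled over nuclear protein-coding genes on log scales, with a solid line at equality and dashed lines at 2-fold. H2-Q1 alone lies beyond 2-fold, below the line.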

How the data were processed

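Total RNA-seq was measured in 2 libraries of adrenal gland. Per the labels, the input was 300 ng of RNA, the kit was directional, ribosomal RNA was reduced and ERCC spike-ins were added. The authors deposited a gene table and a transcript table with expected counts, TPM and posterior mean TPM, under the column names of RSEM. The authors also deposited, as signal bounds on the TPM scale, its credibility interval, and for each transcript its percent of the gene. They also deposited a transcript table of a second quantification with estimated counts and TPM, under the column names of kallisto. Per the labels the assembly was mm10, and the transcript names are those of GENCODE M21. The quantifiers' names and versions, and any use of strand or CAST/EiJ variants in counting, were not given in the sources used here.

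Expected counts were rounded. Symbols, gene types and coordinates come from the annotation, and all tests used R 4.3.3, edgeR 4.0.16 (TMM scaling, exact negative binomial test), DESeq2 1.42.0 (size factors only), Python 3.11.15 and scipy 1.17.1. Genes whose counts summed to 20 or more were compared, replicate 1 over replicate 2, by an exact binomial test with Benjamini-Hochberg adjustment at 0.05 and a 2-fold limit, and log2 ratios used a prior count of 0.5. Reads carry no stated molecular identifiers, so intervals and the limit for a count of 0 reflect counting error alone. The test was checked on simulated counts that held counting error only, so the check does not cover any further spread between libraries. Numbered features and spike-ins stayed out of library sizes, with 1.96e-05% and 1.8e-05% of counts in the numbered features of replicates 1 and 2.

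The members, the lists and the rules were chosen with earlier results of these data known. Every gene with a mean of at least 1 TPM is described, and of each other list the 4 genes with the highest mean and those called may be named. Genes below 1 TPM that are named for their role, and the ratios to Alb, Ptprc and B cell markers, were chosen after their values were seen. Promoters come from RefSeq (GRCm38.p6).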

Additional observations from a re-analysis of the deposited data

How the results depend on the processing

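The count of members called between the libraries, 1 of 30, was 7 with a 1.5-fold limit (23.3%, beside 9.68% of all genes), 14 with no fold limit and 0 with edgeR's exact negative binomial test. The count over all genes, 1284, was 797 at a summed count of at least 100, 5032 with no fold limit and 489 with edgeR. H2-Q10 was called under 8 of 9 alternatives, with a log2 ratio between 1.60 and 1.92. All genes' median log2 ratio moved to 0.07 under total count scaling, where 63.5% of calls were higher in replicate 1, against 59.5% with TMM scaling. In that scaling Tapbp turned to 0.039 and the median of the antigen machinery list to 0.0491. With the second quantification H2-T22 turned to -0.0537, H2-Q1 to 0.19 and the median of the class I-like list to -0.0084.

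Summed over the members, the mean TPM was 436.4, against 1307 when scaled over nuclear protein-coding genes and 640.3 in the second quantification, because the scales differ. In the second quantification the log2 ratios were 1.83 for class I heavy chains over class II chains, 0.65 for H2-K1 over H2-D1, -0.74 for B2m over heavy chains, 0.25 for H2-Aa over H2-Ab1, 1.54 for H2-Aa over H2-Ea-ps, -0.40 for Cd74 over class II chains, 1.01 for Tap2 over Tap1 and 0.80 for Ciita over Nlrc5. The median coding share there was 87.1%. With posterior mean TPM the ratios were -0.25 for Cd74 over class II chains and -0.52 for Ciita over Nlrc5. The causes were not tested. Members beyond the limit between the quantifications numbered 2 with TPM as deposited, 2 at 1.5-fold and 2 with posterior mean TPM, beside 8.24%, 5.53% and 4.13% of all genes. Over protein_coding transcripts alone, chosen after seeing the data, the ratios were -0.23 for H2-K1 over H2-D1, -0.083 for B2m over heavy chains, 1.77 for H2-Ea-ps over H2-Eb1, -0.10 for H2-DMa over H2-DMb, 0.34 for Cd74 over class II chains, -1.06 for Tap2 over Tap1 and 1.06 for Ciita over Nlrc5. Over those of the second quantification they were 0.31, -0.52, 1.13, -0.47, 0.086, 0.14 and 1.43 in the same order, and 1.45 for H2-Aa over H2-Ea-ps. Class I over class II chains, B2m over heavy chains, H2-Aa over H2-Ab1, H2-Aa over H2-Ea-ps and H2-DM over H2-O kept their sign under every alternative run. Without replicate 1 or replicate 2, the ratio of H2-DMa to the H2-DMb chains ranged between -0.0328 and 0.508, and the other ratios kept their sign. No paired analysis was possible because there is 1 group.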

Other observations

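The H2 genes without a protein_coding transcript were low but not all silent. H2-T-ps, a T region pseudogene, had 3.85 TPM in replicate 1 and 3.46 TPM in replicate 2. H2-K2 had 1.10 and 1.46 TPM and H2-Q5 had 0.43 and 0.33 TPM, and of the other 5 the highest was H2-Pb, with 0.07 TPM in replicate 1 and 0 in replicate 2.

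Of 11 MHC class I-like genes outside the H2 symbols, 7 were detected. The neonatal Fc receptor chain Fcgrt had 55.9 TPM in replicate 1 and 65.0 TPM in replicate 2, and Cd1d1, which presents lipids to NKT cells, had 40.01 and 39.24 TPM. Azgp1, a secreted class I-like protein, had 16.2 TPM in replicate 1 and 3.58 TPM in replicate 2, and it was the only one of the 9 tested that was called (log2 ratio 2.13 of replicate 1 over replicate 2). Like H2-Q10 it was higher in the library with more hepatocyte marker RNA, and their part in the result was not tested. Of 18 interferon-stimulated genes 11 were detected, with a median log2 ratio of 0.17 over the 17 tested. The GTPase gene Iigp1, with 2.42 TPM in replicate 1 and 0.65 TPM in replicate 2, was the only one of them called (log2 ratio 1.93).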
